A study of Mus musculus with 11 samples.

Results

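Expression of 9 genes that build the lipid barrier of the epidermis or cross-link its cornified envelope was compared between the skin and the small intestine of mice given imiquimod (IMQ) or vehicle. The genes were taken by their symbols, *Abca12*, *Alox12b*, *Aloxe3*, *Cers3*, *Elovl4*, *Cyp4f39*, *Pnpla1*, *Tgm1* and *Tgm3*. All 9 were found among the 45777 genes of the deposited table. BALB/c mice of 8 to 10 weeks of age received 62.5 mg of cream per day on the shaved back, which was Vaseline in control mice and cream with 5% IMQ, a ligand of an endosomal Toll-like receptor that induces psoriasis-like dermatitis, in treated mice. The annotation of the samples gives 5 to 8 days and adds the right ear, the methods of the study give a shorter upper limit, and neither gives the days or the sex of each mouse. The vehicle was not the base of the IMQ cream, so effects of IMQ and of that base cannot be told apart. There were 3 control (replicates 1 to 3) and 3 IMQ (replicates 4 to 6) libraries of the skin, and 3 control (replicates 7 to 9) and 2 IMQ (replicates 10 and 11) libraries of the small intestine. The RNA came from whole tissue, so fewer cells of a type and less RNA per cell cannot be told apart.

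The outermost layer of the epidermis holds water because dead, flattened keratinocytes are embedded in sheets of lipid, of which ceramides with very long chains are the main part. *Elovl4* lengthens the fatty acid, *Cyp4f39* adds a hydroxyl group at its far end, *Cers3* joins it to the sphingoid base, and *Pnpla1* esterifies the far end with linoleic acid. *Abca12* loads the lipid into lamellar granules, the lipoxygenases *Alox12b* and *Aloxe3* oxidize the linoleic acid in sequence so that the ceramide can be bound to protein, and the transglutaminases *Tgm1* and *Tgm3* cross-link the proteins of the envelope. Loss of any of several of these genes causes congenital ichthyosis or a lethal barrier defect.

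The libraries had between 44995414 and 58526384 counts. Markers of differentiated epidermis were present in all skin libraries, and the summed level of 9 suprabasal keratinocyte genes was 5054 to 11895 FPKM (fragments per kilobase of transcript, scaled to library size) in control and 7880 to 13669 FPKM in IMQ-treated skin, against 0.707 to 1.89 FPKM in the small intestine. The suprabasal sum hides a fall of *Krt2* after IMQ, which is given with the keratins below. Enterocyte markers, 8 genes, summed to 8684 to 16478 FPKM in the small intestine. The control skin libraries differed in hair follicle genes, with 667 and 1102.5 FPKM over 15 genes in replicates 1 and 3, 6.42 FPKM in replicate 2 and 3.61 to 4.54 FPKM in IMQ-treated skin. Replicate 2 also had 186 FPKM of the enterocyte markers against 17.6 to 28.2 FPKM in the other skin libraries. The sum includes *Anpep*, with 7767 normalized counts (defined below) in replicate 2 and 3429 to 5516 in the other skin libraries. The other markers stood further apart, such as *Fabp2* with 5035 against 0 to 148 and *Vil1* with 1013 against 0 to 23.7.

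In the skin, 1 of the 9 genes, *Tgm3*, was higher after IMQ, and no other gene of the 9 passed the test. Genes were tested by the quasi-likelihood method of edgeR, and p-values were adjusted (Benjamini-Hochberg) over the 20512 genes detected in every skin library. A call was an adjusted p under 0.05, and all 9 genes had such counts. Over all genes tested, 6.74% were called, 4.05% higher and 2.69% lower. Against that background 1 of 9 is not a result about the group. The median log2 fold change of the 9 genes was 0.27, against -0.01 over all genes tested. Normalized counts, that is, counts brought to a common effective library size within a tissue, did not overlap between the groups for *Tgm3*, which was higher, and *Elovl4*, which was lower, while such separation was seen in 15.1% of all genes for higher and 13.3% for lower values. The Wald test of DESeq2, which called 14.8% of all genes (7.38% higher and 7.39% lower), called *Tgm3* and also *Elovl4*. Without control replicate 2, *Tgm3* was again the one gene called (log2 difference 2.83, adjusted p = 0.0119 by edgeR), beside 12.1% of all genes (5.49% higher and 6.66% lower). Leukocyte markers moved with the treatment, as 5 of 7 were called higher and their summed level was 295 to 397 FPKM in control and 7777 to 9095 FPKM in IMQ-treated skin. The largest log2 fold changes were those of *S100a8* (10.16) and *S100a9* (9.46). The others ranged from 0.57 (*Cd68*) to 2.94 (*Itgam*), and *Cd68* and *Cd3e* were not called. The sum is thus no measure of the number of leukocytes. The part of these markers in the levels of the 9 genes was not tested.

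**Figure D1:**
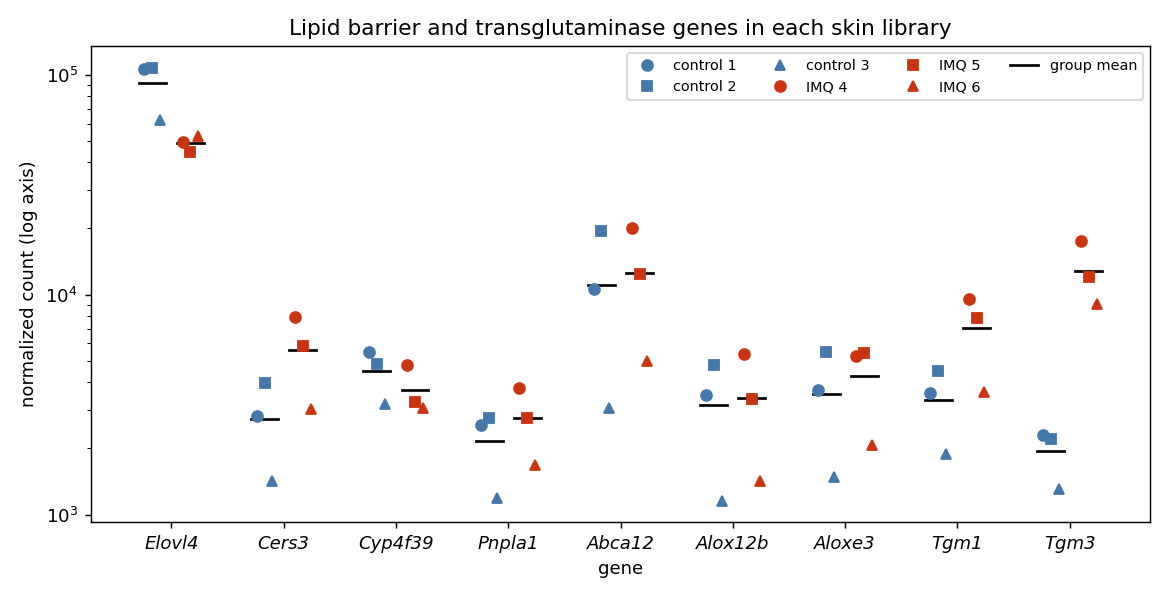
Normalized counts of the 9 genes in each of the 6 skin libraries on a log axis, with control libraries in blue, IMQ libraries in red, the marker shape giving the replicate and a black line the group mean. The triangles, control replicate 3 and IMQ replicate 6, sit at the bottom of their groups for most genes, and the groups stand apart for *Tgm3* (1308 to 2309 against 9093 to 17489) and *Elovl4* (62353 to 107745 against 44533 to 52663).

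*Elovl4* (Entrez Gene 83603), the elongase that makes the very long acyl chains, lies on the minus strand of chromosome 9 from 83778692 to 83806305 in mm10 (GRCm38), the build of all positions here. Its normalized counts were 106051, 107745 and 62353 in control replicates 1, 2 and 3 and 49519, 44533 and 52663 in IMQ replicates 4, 5 and 6. All treated libraries were below all controls, with control replicate 3 nearest to them. The group means were 92050 ± 25732 (SD, n = 3) and 48905 ± 4100 (SD, n = 3), a log2 difference of -0.91 ± 0.25 (SE, adjusted p = 0.0804 by edgeR), so the gene was not called. DESeq2 gave an adjusted p of 0.00367, and without control replicate 3, where 4.51% of all genes were called (2.33% higher and 2.18% lower), edgeR gave 0.0267 at a log2 fold change of -1.14. *Elovl4* was the most abundant of the 9 genes per length in all 6 libraries, with 563 ± 146 FPKM (SD, n = 3) in control and 290 ± 29.2 FPKM (SD, n = 3) in IMQ-treated skin, whereas the control means of the other 8 lay between 8.80 and 32.4 FPKM. Sebaceous gland markers moved with *Elovl4*, since 4 of 8 were called lower and none higher, and their summed level was 228 to 465 FPKM in control and 109 to 177 FPKM in IMQ-treated skin. Their part in the level of *Elovl4* was not tested.

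*Cers3* (Entrez Gene 545975), the ceramide synthase that accepts the very long acyl chains, lies on the plus strand of chromosome 7 from 66733118 to 66823692, and a predicted gene, *Gm10623*, overlaps it on the same strand, so its counts are uncertain. It had 2817, 3956 and 1420 normalized counts in control replicates 1, 2 and 3 and 7935, 5857 and 3033 in IMQ replicates 4, 5 and 6. IMQ replicate 6 fell between the controls, while the other treated libraries lay above all of them. The log2 difference was 1.04 ± 0.45 (SE, adjusted p = 0.228 by edgeR), which was not called.

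*Cyp4f39* (Entrez Gene 320997), the cytochrome P450 that hydroxylates the acyl chain, is on chromosome 17 from 32452697 to 32493320 on the plus strand. Its normalized counts were 5477, 4854 and 3200 in control replicates 1, 2 and 3, and 4773, 3258 and 3039 in IMQ replicates 4, 5 and 6. The groups overlapped, and the log2 difference of -0.29 ± 0.25 (SE, adjusted p = 0.543 by edgeR) was about the size of its error. It ranged from -0.51 (without IMQ replicate 4) to -0.13 (without control replicate 1) when 1 library was removed.

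*Pnpla1* (Entrez Gene 433091), the transacylase of the last step of acylceramide synthesis, is also on chromosome 17, from 28858286 to 28890308 on the plus strand, and an antisense transcript gene, *Pnpla1os*, overlaps it. Because the handling of strand in counting is not given in the sources used here, reads of the pair cannot be told apart. The control replicates 1, 2 and 3 had 2548, 2737 and 1196 normalized counts and the IMQ replicates 4, 5 and 6 had 3776, 2751 and 1687. Values overlapped between the groups, with a log2 difference of 0.34 ± 0.38 (SE, adjusted p = 0.650 by edgeR). The value was 0.04 without control replicate 3 or IMQ replicate 4. It was 0.60 without IMQ replicate 6.

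*Abca12* (Entrez Gene 74591), the lipid transporter of lamellar granules, spans chromosome 1 from 71243090 to 71414910 on the minus strand. It varied most within a group, with 10623, 19529 and 3052 normalized counts in control replicates 1, 2 and 3 and 20177, 12446 and 5018 in IMQ replicates 4, 5 and 6. The highest control had 6.40 times the lowest one, and the highest treated library 4.02 times the lowest, so the log2 difference of 0.18 ± 0.70 (SE, adjusted p = 0.916 by edgeR) was well within the spread. Its sign turned without control replicate 3 (-0.27) or IMQ replicate 4 (-0.34).

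The lipoxygenase genes are neighbors on the plus strand of chromosome 11, *Aloxe3* (Entrez Gene 23801) from 69125417 to 69149115 and *Alox12b* (Entrez Gene 11686) from 69157072 to 69169791, with 7956 bases between them. *Alox12b*, which makes the hydroperoxide, had 3515, 4783 and 1158 normalized counts in control replicates 1, 2 and 3 and 5390, 3341 and 1424 in IMQ replicates 4, 5 and 6. *Aloxe3*, which converts that hydroperoxide to an epoxyalcohol, had 3682, 5476 and 1478 in the controls and 5268, 5444 and 2077 in the treated libraries, in the same order of replicates. Each gene had a low control and a low treated library, and neither differed by more than that spread. The log2 fold changes were 0.10 for *Alox12b* (SE 0.60, adjusted p = 0.943 by edgeR) and 0.27 for *Aloxe3* (SE 0.52, adjusted p = 0.811 by edgeR), and both turned negative without control replicate 3 (-0.30 and -0.11). Without IMQ replicate 4 the value of *Alox12b* was -0.40.

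*Tgm3* (Entrez Gene 21818), a transglutaminase of the upper epidermis and of the hair follicle, lies on the plus strand of chromosome 2 from 129987794 to 130050399, with a microRNA gene, *Mir6339*, antisense to it. It had 2309, 2206 and 1308 normalized counts in control replicates 1, 2 and 3 and 17489, 12023 and 9093 in IMQ replicates 4, 5 and 6. The lowest treated library was well above the highest control. Means were 1941 ± 550.4 (SD, n = 3) and 12868 ± 4261 (SD, n = 3), a log2 difference of 2.73 ± 0.32 (SE, adjusted p = 0.00699 by edgeR). The call was kept in all 6 fits with 1 library removed, with log2 fold changes from 2.45 to 2.93 and adjusted p-values from 0.0119 to 0.0324, and in all 7 other models and filters. Hair follicle markers went the other way, with 0 of 9 tested called higher, 2 lower by edgeR and 9 lower by DESeq2, with a median log2 fold change of -6.10. In control replicate 2, where they were nearly as low as after IMQ, *Tgm3* (2206) lay between the other controls. The hyperproliferative keratinocyte genes moved with *Tgm3*, as 3 of 4 were called higher and their summed level was 587 to 857 FPKM in control and 2655 to 6216 FPKM in IMQ-treated skin. The part of either cell state in the level of *Tgm3* was not tested. Per length, *Tgm3* ranked 8 or 9 of the 9 genes in each control and 2 in each treated library.

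*Tgm1* (Entrez Gene 21816), the membrane-bound transglutaminase of keratinocytes, is on the minus strand of chromosome 14 from 55700009 to 55713921, with an antisense gene, *Gm49067*, whose reads cannot be told apart from its own. Its normalized counts were 3577, 4503 and 1892 in control replicates 1, 2 and 3 and 9584, 7856 and 3619 in IMQ replicates 4, 5 and 6. As with *Cers3*, only IMQ replicate 6 fell within the range of the controls. The log2 difference was 1.08 ± 0.43 (SE, adjusted p = 0.192 by edgeR), which was not called, nor was it by the Wald test of DESeq2 (adjusted p = 0.0701).

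The windows before the transcription starts of *Tgm3*, *Tgm1* and *Elovl4* are shown because these are the gene that rose, its nearest relative among the 9 and the gene with the largest fold change in the other direction. Each runs over the 250 bases up to the start, 5′ to 3′ on the strand of the gene, from RefSeq on GRCm38.p6. Capitals mark matches, on either strand, to AP-1 (TGANTCA), Grhl (AACNNGTT), STAT (TTCNNNGAA), CEBP (TTGCNNAA) or a TATA box (TATAAA). The window of *Tgm3* is chr2:130012090-130012339 (plus strand), that of *Tgm1* is chr14:55713493-55713742 (minus strand, 1 of 2 starts in the table) and that of *Elovl4* is chr9:83806306-83806555 (minus strand).
Tgm3: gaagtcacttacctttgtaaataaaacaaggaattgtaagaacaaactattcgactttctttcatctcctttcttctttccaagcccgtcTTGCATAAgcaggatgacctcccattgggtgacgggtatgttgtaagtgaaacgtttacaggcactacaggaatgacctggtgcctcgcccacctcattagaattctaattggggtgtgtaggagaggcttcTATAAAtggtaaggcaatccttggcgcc
Tgm1: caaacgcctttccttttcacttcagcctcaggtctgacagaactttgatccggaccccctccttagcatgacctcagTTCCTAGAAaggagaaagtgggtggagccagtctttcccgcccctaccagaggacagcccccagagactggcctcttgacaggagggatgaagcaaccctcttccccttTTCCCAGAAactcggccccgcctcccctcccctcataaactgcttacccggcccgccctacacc
Elovl4: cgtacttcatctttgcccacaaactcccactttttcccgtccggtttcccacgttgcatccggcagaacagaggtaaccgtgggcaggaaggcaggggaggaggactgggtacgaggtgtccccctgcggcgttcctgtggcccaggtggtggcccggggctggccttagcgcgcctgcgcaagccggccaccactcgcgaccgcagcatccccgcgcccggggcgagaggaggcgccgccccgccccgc

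RefSeq windows were matched for 8 of the 9 genes, 9 windows in all with both starts of *Tgm1*, and the one not matched was *Aloxe3*. The window of *Tgm3* held a TATA box 28 to 23 bases before the start and a CEBP match 160 to 153 bases before it. At any position and on either strand, 12.4% of the 32851 windows of all genes held the TATA box letters and 9.56% a CEBP match. The share with a TATA box at the position found in *Tgm3* was not computed. That of *Tgm1* held a pair of STAT matches, 173 to 165 and 64 to 56 bases before the start (7.02% of all windows held at least 1), and the other 7 windows held none of the letters searched, which for AP-1 and Grhl are found in 6.75% and 3.64% of all windows. G and C made up 44.0% of the window of *Tgm3* and 69.6% of that of *Elovl4*, against a median of 52.4% over all windows. The gene counts do not tell which start was used, the windows of *Tgm3* and *Tgm1* lie inside the spans given above for these genes, and a match is a description of letters, not of binding.

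**Figure D2:**
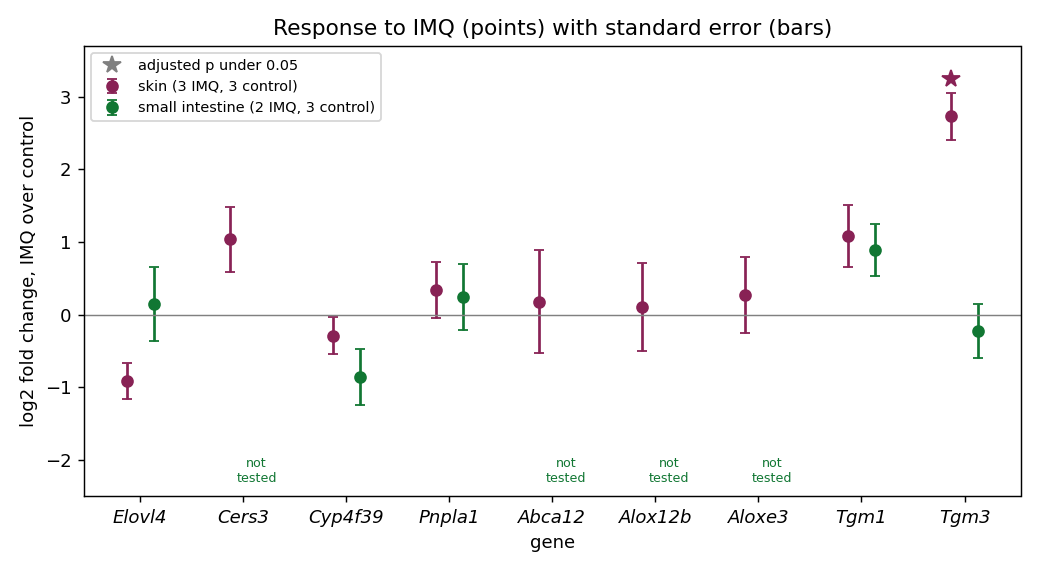
Log2 fold changes of the 9 genes (points) with their standard errors (bars) from edgeR's quasi-likelihood test in the skin (purple) and, for the 5 genes tested there, in the small intestine (green), where a star marks an adjusted p under 0.05. The star stands above *Tgm3* in the skin (2.73) alone, while its value in the small intestine was -0.23.

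The genes varied together between the libraries of a group. Control replicate 3 was the lowest control for 9 of the 9 genes, and IMQ replicate 6 the lowest treated library for 8 of the 9, the exception being *Elovl4*, for which it was the highest. These libraries also had the lowest summed suprabasal keratinocyte markers of their groups, 5054 and 7880 FPKM, and the part of that in the levels was not tested. Outside the 9 genes, *Krt1* and *Krt10* were lowest in the same libraries. The share of all genes with this order was not computed, so the order cannot be read as particular to the 9 genes. Likeness was measured as the root mean square difference between profiles, each profile being log2(normalized count + 0.5) minus its mean over the 6 skin libraries. The closest pair was *Cers3* and *Tgm1* (0.09), followed by *Abca12* and *Alox12b* (0.21) and by *Alox12b* and *Aloxe3* (0.26), and the pair farthest apart was *Elovl4* and *Tgm3* (1.82). Among 15883 genes averaging 50 or more normalized counts, the 5 genes outside the group that came nearest to its median profile were *Dsg1b* (0.12), *Gm9696* (0.13), *Mpzl3* (0.13), *Gm35363* (0.14) and *Tmprss13* (0.14). *Dsg1b* encodes a desmoglein and belongs to a set of similar neighboring genes, so its counts are uncertain. The log2 fold changes of these 5 genes were 0.38 to 0.71, with adjusted p-values from 0.433 to 0.702 by edgeR. In the same ranking *Pnpla1* was at place 16 and *Abca12* at 418, but *Cyp4f39* at 1818, *Elovl4* at 12052 and *Tgm3* at 14565. The median profile thus does not describe *Elovl4* and *Tgm3*.

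Ratios of genes within a library do not depend on the scaling of the library, and 5 were computed for partner genes of nearby or parallel steps. The 3 libraries in each group allow no p under 0.1 in the exact two-sided permutation test, so none of the ratios could pass a threshold of 0.05. The ratio of *Tgm3* to *Tgm1* in FPKM was 0.434, 0.328 and 0.472 in control replicates 1, 2 and 3 and 1.28, 1.05 and 1.69 in IMQ replicates 4, 5 and 6. *Tgm3* was thus the lower of the transglutaminases in every control and the higher in every treated library, a difference of 1.69 on the log2 scale (SD 0.27 and 0.34, exact permutation p = 0.1, 0.25 with Benjamini-Hochberg adjustment over the 5 ratios). *Elovl4* exceeded *Cers3* by 40.1, 29.0 and 46.7 times in the controls and by 6.65, 8.09 and 18.5 times in the treated libraries, without overlap (log2 difference -1.92, exact permutation p = 0.1, adjusted 0.25).

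The other ratios overlapped between the groups. For *Aloxe3* to *Alox12b* they were 0.572, 0.634 and 0.764 in the controls and 0.538, 0.839 and 0.791 in the treated libraries, a log2 difference of 0.12 (SD 0.21 and 0.35, exact permutation p = 0.7, adjusted 0.7), although either gene alone differed by up to 4.13 times between the libraries of a group. For *Abca12* to *Alox12b* the treated libraries lay between 0.994 and 1.06 and the controls between 0.743 and 1.15, a log2 difference of 0.20 (exact permutation p = 0.4, adjusted 0.5). The ratio of *Pnpla1* to *Cyp4f39* was 0.216 to 0.333 in control and 0.328 to 0.492 in IMQ-treated skin, a log2 difference of 0.65 (exact permutation p = 0.2, adjusted 0.333).

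**Figure D3:**
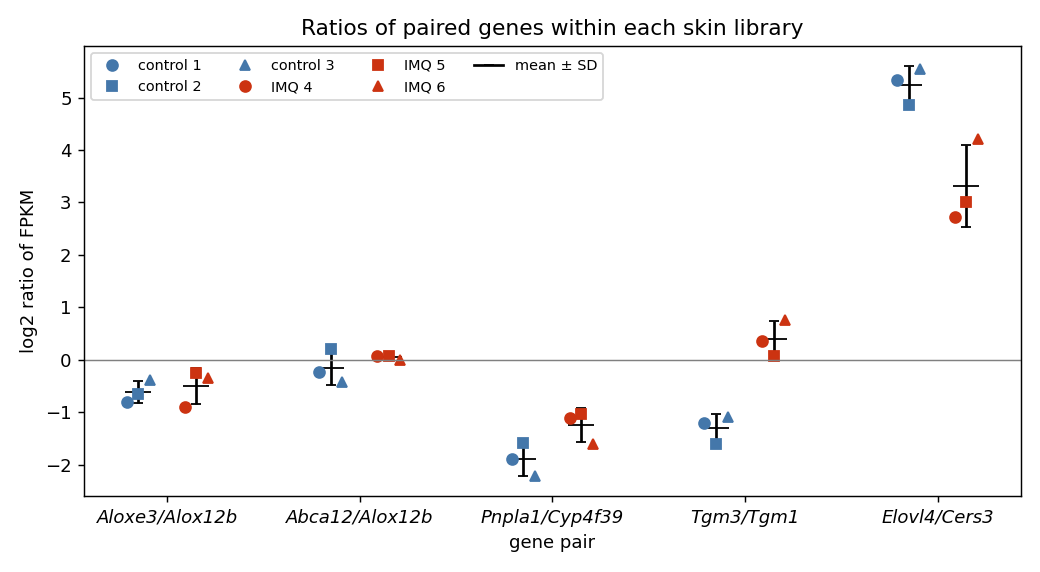
Log2 ratio of FPKM for 5 pairs of genes in each skin library (controls blue, IMQ red, marker shape by replicate), with the group mean and SD in black. The groups overlap for the 3 pairs on the left and stand apart for *Tgm3*/*Tgm1* (means -1.30 and 0.39) and *Elovl4*/*Cers3* (means 5.24 and 3.32).

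Because the RNA was of whole skin, each gene was also divided by the geometric mean of keratin genes in the same library. The geometric mean of *Krt5* and *Krt14*, the keratins of the basal layer, was 1099 to 1477 FPKM in control and 2210 to 2898 FPKM in IMQ-treated skin. That of *Krt1* and *Krt10*, the keratins of the suprabasal layers, was 1201 to 3107 and 1642 to 3677 FPKM and overlapped between the groups. Relative to the basal keratins, *Tgm3* differed by 1.75 (log2, IMQ minus control), *Elovl4* by -1.87 and *Cyp4f39* by -1.28, each without overlap between the groups, and *Cers3* and *Tgm1* by 0.06 each. The other 4 genes had values from -0.86 to -0.63 with overlap. The geometric mean of *Krt5* and *Krt14* was itself higher after IMQ without overlap, which lowers every value on this scale. These keratins do not stand for all basal genes, since 1 of 8 basal keratinocyte markers was called higher and 1 lower. The gene called lower was *Krt15* (-2.26, adjusted p = 0.00448 by edgeR). The share of all genes without overlap relative to either pair of keratins was not computed, so such separation is not a result about the 9 genes. Relative to the suprabasal keratins, *Tgm3* differed by 2.46, *Elovl4* by -1.16, *Tgm1* by 0.77 and *Cers3* by 0.76, again without overlap, while *Abca12*, *Alox12b*, *Aloxe3* and *Pnpla1* lay between -0.16 and 0.08. *Cyp4f39* differed by -0.57 on this scale, and its groups overlapped. Scaled to the library, to the basal or to the suprabasal keratins, *Tgm3* was above 0 and *Elovl4* and *Cyp4f39* below 0 each time. *Cers3* and *Tgm1* were above 0 as well, but at 0.06 relative to the basal keratins their groups overlapped (exact permutation p = 0.7 and 0.9). The sign for *Abca12*, *Alox12b*, *Aloxe3* and *Pnpla1* depended on the reference. *Krt14* itself was called higher (1.41, adjusted p = 0.0447 by edgeR), and *Krt5*, *Krt1* and *Krt10* were not called. Among the suprabasal keratinocyte markers, 0 were called higher and 1 lower, the keratin gene *Krt2* (-7.59, adjusted p = 0.00641 by edgeR). *Krt2* had 621 to 3625 normalized counts in control and 6.17 to 10.9 in IMQ-treated skin, and it was not used for scaling. Over the 9 genes the exact permutation p for a reference was 0.1 at the lowest, or 0.3 for the basal and 0.225 for the suprabasal keratins when adjusted.

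**Figure D4:**
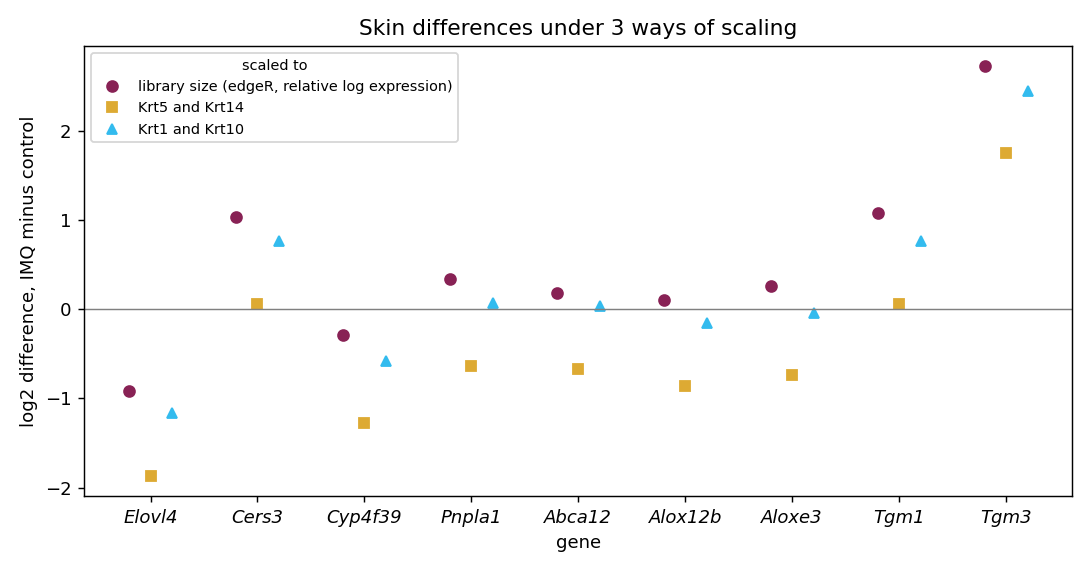
Log2 difference between IMQ-treated and control skin for the 9 genes when scaled to the library (purple circles), to *Krt5* and *Krt14* (yellow squares) or to *Krt1* and *Krt10* (blue triangles). *Tgm3* (1.75 to 2.73) stays above 0 and *Elovl4* (-1.87 to -0.91) below 0 throughout, while *Cers3* (1.04) and *Tgm1* (1.08) lie at 0.06 when scaled to the basal keratins.

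The other transglutaminases tested did not pass the test in the skin. Of the 6 genes of the family with counts in every skin library, *Tgm3* was the one called, *Tgm1* is described above, and *Tgm5* (log2 fold change 0.53, adjusted p = 0.502 by edgeR) and the widely expressed *Tgm2* (-0.56, adjusted p = 0.178) were not. Of the 4 tested genes besides *Tgm1* and *Tgm3*, the Wald test of DESeq2 also called 0, and 1 had an unadjusted p under 0.05 from edgeR, as had *Tgm1* (0.0398). *Tgm4* and the coagulation factor gene *F13a1* had log2 fold changes of 0.20 and 0.17. *Tgm6* had 108, 0 and 252 counts in control replicates 1, 2 and 3 and *Tgm7* had 55, 105 and 26, and both were at 0 in all 3 IMQ libraries, which allows up to 3 counts in each.

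Of the 7 lipoxygenase genes, all tested, 1 was called higher and 1 lower. *Alox8* (Entrez Gene 11688), which oxidizes arachidonic acid, lies 14093 bases beyond *Alox12b* on the other strand, from 69183885 to 69197843, with no protein-coding gene between them. It had 111, 87.2 and 132 normalized counts in control replicates 1, 2 and 3 and 4864, 2996 and 1140 in IMQ replicates 4, 5 and 6, a log2 difference of 4.76 ± 0.55 (SE, adjusted p = 0.00699 by edgeR). *Alox12e*, the epidermal lipoxygenase gene of another cluster on chromosome 11 (70315610 to 70322720), fell from 18260, 27245 and 8752 to 1500, 3844 and 3978 normalized counts, a log2 difference of -2.54 ± 0.52 (SE, adjusted p = 0.0363 by edgeR). *Alox12* (-0.70), *Alox15* (-0.92) and *Alox5* (0.22) were not called, with adjusted p-values from 0.142 to 0.687.

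Genes of the remaining steps were counted from lists that leave out the 9 genes, and 6.74% of all genes tested serve as the background. Of 16 genes of fatty acid elongation and activation, 2 were lower and 0 higher, with a median log2 fold change of -0.55. These were *Elovl6*, which elongates palmitate (-2.20, adjusted p = 0.0107 by edgeR), and *Tecr*, the reductase of the elongation cycle (-0.66, adjusted p = 0.0392). Of 15 genes of ceramide synthesis, 2 were higher and 4 lower, with a median of -0.14. Among them the desaturase gene *Degs1* (0.98, adjusted p = 0.0423) and *Sptlc2*, a subunit of the enzyme of the committed step (0.55, adjusted p = 0.0336), were higher, and the hydroxylase gene *Fa2h* (-1.68, adjusted p = 0.0389), *Cers4* (-1.56, adjusted p = 0.0284) and *Cers5* (-1.47, adjusted p = 0.0499) were lower. Of 14 genes of glucosylceramide and sphingomyelin turnover, the sphingomyelin synthase gene *Sgms2* (-0.97, adjusted p = 0.0239) and the ceramidase gene *Acer3* (-0.66, adjusted p = 0.0202) were lower and none higher. None of the 6 further genes of acylceramide synthesis and the corneocyte lipid envelope was called by edgeR or by the Wald test of DESeq2 (median 0.53), and 3 of them had an unadjusted p under 0.05 from edgeR. The call of DESeq2 was 1 higher and 4 lower for elongation, 2 higher and 4 lower for ceramide synthesis, and 2 higher and 2 lower for glucosylceramide and sphingomyelin turnover, with 14.8% of all genes called.

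Among 15 tested transglutaminase substrates of the envelope, 2 were higher and 0 lower, with a median of 0.08, and DESeq2 called 3 higher and 3 lower. *Rptn*, which encodes repetin, had 2199, 2580 and 482 normalized counts in the controls and 59391, 23262 and 8623 in IMQ replicates 4, 5 and 6 (log2 fold change 4.12, adjusted p = 0.0439 by edgeR). *Sprr1b*, a small proline-rich protein gene, had 5838, 2651 and 2462 and then 31001, 18508 and 9296 (2.42, adjusted p = 0.0427). Of 16 transcription factor genes linked to the barrier, the nuclear receptor gene *Ppard* was higher (0.91, adjusted p = 0.0242) and *Ppara* lower (-1.17, adjusted p = 0.0495), with a median of 0.18. In the small intestine, edgeR called 1 gene higher among 16 of elongation and 1 among 13 of the transcription factors, and 0 in the lists of transglutaminases, lipoxygenases, ceramide synthesis, glucosylceramide turnover, the lipid envelope and substrates, where 1, 0, 2, 3, 1 and 1 genes had an unadjusted p under 0.05 and DESeq2 called 1, 0, 0, 1, 1 and 0 higher.

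**Figure D5:**
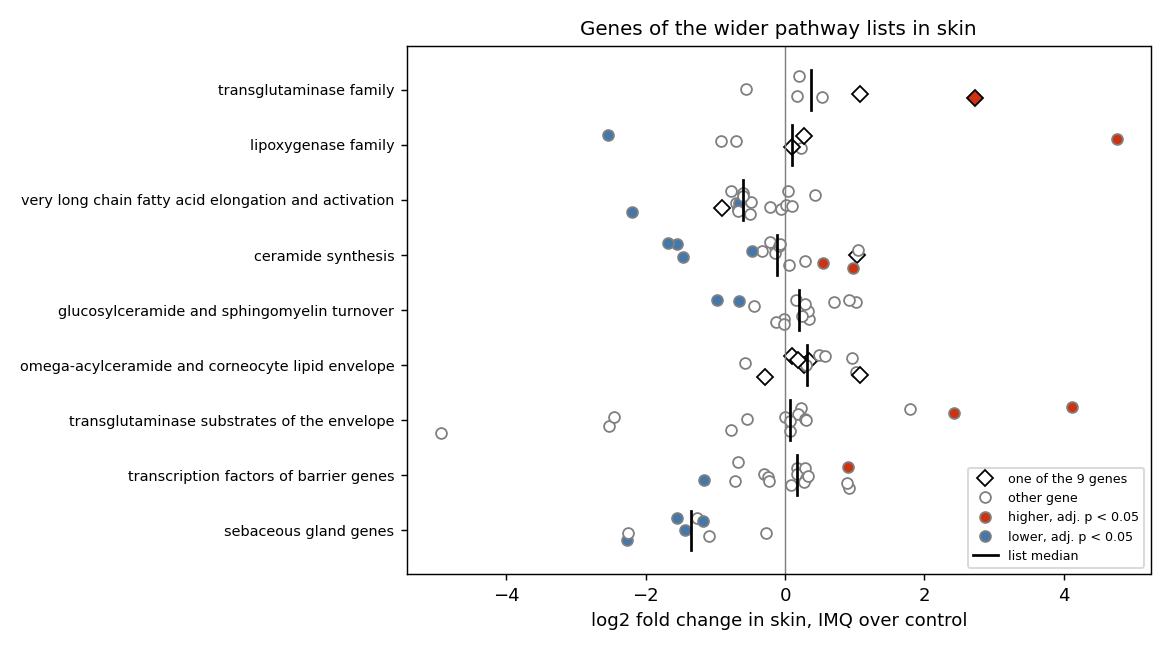
Log2 fold changes in the skin (horizontal axis) of the genes in each list (rows), with the 9 genes as diamonds, other genes as circles, filled red or blue where called higher or lower, and a black line at the median of the list with any of the 9 genes included. Most symbols are open, the filled diamond is *Tgm3*, and the sebaceous gland genes lie left of 0 with a median of -1.35.

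In the small intestine no gene of the 9 was called after IMQ, and counts were low, with 68 to 139 per library for *Pnpla1*, 27 to 89 for *Tgm1* and 0 to 37 for the other 7. Of the 9 genes, 5 had a count in every library and were tested among 19965 genes, of which 2.95% were called by edgeR (2.77% higher) and 6.04% by DESeq2 (5.04% higher). None of the 5 passed the edgeR test or any of the other models and filters, the Wald test of DESeq2 included, and 1 of the 5, *Tgm1*, had an unadjusted p under 0.05 from edgeR. *Tgm1* had 36.9, 27.2 and 48.9 normalized counts in control replicates 7, 8 and 9 and 80.8 and 58.8 in IMQ replicates 10 and 11. Both treated libraries were above the controls, as in 15.1% of all genes, and the log2 difference of 0.89 (SE 0.35) had an adjusted p of 0.365. *Cyp4f39* had 18.4, 23.2 and 34.2 in the controls and 14.5 and 13.3 after IMQ, both below the controls, as in 13.9% of all genes (log2 fold change -0.86, SE 0.39, adjusted p = 0.449 by edgeR). *Pnpla1* had the highest mean FPKM of the 9 genes in this tissue (0.392 in control and 0.432 in IMQ-treated mice), although *Tgm1* exceeded it in IMQ replicate 10. Its normalized counts ranged from 62.8 to 144 in control and from 76.3 to 154 in IMQ-treated mice (log2 fold change 0.25, adjusted p = 0.903).

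*Tgm3* had 17.4, 13.1 and 10.2 normalized counts in the control and 11.8 and 11.1 in the IMQ-treated small intestine, a log2 difference of -0.23 ± 0.37 (SE, adjusted p = 0.891 by edgeR). *Elovl4*, with 11.9, 19.2 and 22.2 in control and 29.0 and 9.98 in treated libraries, had a log2 difference of 0.15 ± 0.51 (SE, adjusted p = 0.953 by edgeR). The other 4 genes lacked a count in at least one library. *Aloxe3* had 0, 13 and 16 counts in control replicates 7, 8 and 9 and 36 and 5 in IMQ replicates 10 and 11, and *Cers3* had 4, 7 and 0 and then 0 and 4. *Abca12* had 3 counts in control replicate 9 and 0 elsewhere, and *Alox12b* had 0 in all 5 libraries, each of which allows up to 3 counts, or 0.0587 CPM (counts scaled to library size) in the control libraries.

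The response of *Tgm3* differed between the tissues when all libraries were used. The difference, taken from the interaction term of a model with all 11 libraries for the 18108 genes detected throughout, was 2.94 on the log2 scale (skin minus small intestine, SE 0.60, adjusted p = 0.0304 by edgeR), and 2.55% of all genes were called (0.856% with the more positive and 1.7% with the more negative value in skin). *Tgm3* was higher in 3 of 3 treated skin libraries than in any control, and between the controls in 2 of 2 treated small intestine libraries. The call was lost in 6 of the 11 fits with 1 library removed, namely skin IMQ replicate 5 and each of the small intestine libraries 7 to 11, with adjusted p-values from 0.0203 to 0.127 over the 11 fits, while the difference stayed between 2.66 and 3.14. The interaction was not called for the other 4 genes tested, *Elovl4* (-1.08, adjusted p = 0.357), *Cyp4f39* (0.57, adjusted p = 0.624), *Pnpla1* (0.08, adjusted p = 0.972) and *Tgm1* (0.18, adjusted p = 0.934). The value of *Elovl4* was -0.10 without small intestine IMQ replicate 10 and -1.60 without replicate 11.

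All 5 testable genes were higher in control skin than in control small intestine, in a comparison that called 51.9% of the 18890 genes tested (25.7% higher and 26.2% lower in skin, or 41.5% and 16.7% with limma on log2(FPKM + 0.01)). The log2 differences were 11.99 for *Elovl4* (adjusted p = 4.44e-06 by edgeR), 7.13 for *Cyp4f39* (adjusted p = 6.23e-06), 6.83 for *Tgm3* (adjusted p = 7.14e-06), 6.12 for *Tgm1* (adjusted p = 2.27e-05) and 4.15 for *Pnpla1* (adjusted p = 1.66e-04). *Abca12* was at least 3895-fold and *Alox12b* at least 1116-fold higher in control skin in CPM, with a floor of 3 counts per library in the small intestine. *Aloxe3* in the small intestine was at 0.246% and *Cers3* at 0.134% of the level in skin. *Pnpla1* reached 4.17% and *Tgm1* 1.04% of their levels in skin, whereas *Elovl4* reached 0.0179%, and the 4 keratins used for scaling were at 0.00328% (*Krt1*), 0.00454% (*Krt5*), 0.0111% (*Krt14*) and 0.0234% (*Krt10*). The part of skin RNA in these low counts was not tested.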

How the data were processed

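RNA of whole skin and small intestine was sequenced from libraries made with a TruSeq stranded mRNA kit, and 1 table holds all 11 libraries. Per the submitters' processing notes and the methods of the study, the authors trimmed the reads, aligned them to mm10 with HISAT2 2.1.0 and quantified genes with StringTie 2.1.3b, and they deposited read counts per gene without normalization. The deposited table also holds the FPKM computed by the authors, scaled by transcript length and library size, and TPM values of the authors, which were left unused here. The tool behind the counts and its use of strand are not given in the sources used here, so counts of overlapping and near-identical genes are uncertain.

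Each library was assigned by its title. Within a tissue, genes detected (1 count or more) in all of its libraries were normalized by relative log expression and tested with edgeR 4.0.16 (quasi-likelihood, Benjamini-Hochberg, adjusted p under 0.05) in R 4.3.3, and the standard error was taken as the log2 fold change over the root of F. The study used DESeq2 with a like filter, which was run as an alternative (DESeq2 1.42.0). Comparisons across tissues used genes with a count in all libraries concerned. Ratios of FPKM were tested by exact two-sided permutation. Alternatives were TMM, DESeq2, the filterByExpr filter, no filter, limma 3.58.1 on log2(FPKM + 0.01) and log2(FPKM + 1), one fit of all 11 libraries and each library left out. With 44995414 to 58526384 counts per library, the differences between libraries limit the precision for the skin values and the depth also for those of the small intestine. The common biological coefficient of variation (BCV) came to 0.245 for skin and 0.215 for the small intestine. Nothing in the annotation names the mouse of a library, so p-values measure the spread between these samples.

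The 9 genes, the lists and the partner ratios were chosen with earlier results of these data known. The text names the 9 genes, all genes of the transglutaminase and lipoxygenase families, from each other list up to 3 called genes per direction averaging 50 or more normalized counts, and the 5 genes of most similar skin profile. *Pnpla1os*, the keratins used for scaling, other marker genes and genes next to a result were named in addition. Of the motifs, all 5 were chosen after expression values were seen. Positions came from RefSeq (GRCm38.p6) through the Entrez Gene identifier, and strands from GENCODE M21. All columns of the table belonged to the 11 libraries.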

Additional observations from a re-analysis of the deposited data

Results flagged for a closer look

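One result is given here because a test of the difference between the tissues in their response to IMQ passed the threshold with all 11 libraries. The interaction of tissue and IMQ was 2.94 on the log2 scale for *Tgm3* (skin minus small intestine, adjusted p = 0.0304 by edgeR), with log2 fold changes of 2.73 in skin and -0.23 in the small intestine. The small intestine libraries had 10 to 16 counts of *Tgm3* each, against 1501 to 16004 in the skin libraries. *Tgm3* was higher in 3 of 3 treated skin libraries than in every control. The call was lost in 6 of the 11 fits with 1 library removed, among them each one without a small intestine library, with adjusted p-values of up to 0.127.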

How the results depend on the processing

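In the skin, 1 of the 9 genes (*Tgm3*) was called with each model and filter except the Wald test of DESeq2, which called 2 (*Elovl4* in addition), and over the fits without 1 library the count was 1 to 2, with 2 without control replicate 3. Fold changes that changed sign without control replicate 3 were those of *Abca12* (-0.27), *Alox12b* (-0.30) and *Aloxe3* (-0.11), and without IMQ replicate 4 those of *Abca12* (-0.34) and *Alox12b* (-0.40), while their highest values, without control replicate 2, were 0.88, 0.54 and, for *Aloxe3*, 0.73. In the small intestine the count was 0 throughout. There *Elovl4* turned to -0.032 with limma on log2(FPKM + 0.01), to -0.05 without control replicate 7 and to -0.82 without IMQ replicate 10 (highest 0.70), and *Pnpla1* to -0.34 without IMQ replicate 11 (highest 0.68). For the interaction, 1 gene was called with each model and filter and 0 to 1 in the fits without 1 library, with 0 without skin IMQ replicate 5 or any of the small intestine replicates 7 to 11. The interaction turned to -0.23 for *Cyp4f39* with limma on log2(FPKM + 1), to -0.23, -0.22, -0.33 and -0.36 for *Pnpla1* without skin control replicate 3, skin IMQ replicate 4, small intestine control replicate 7 and IMQ replicate 10 (highest 0.69), and to -0.12, -0.11, -0.06 and -0.0080 for *Tgm1* without skin control replicate 3, skin IMQ replicate 4, small intestine control replicate 9 and IMQ replicate 11. Between control tissues, 5 genes were called, 9 of 9 with the filterByExpr filter or no filter, which test more genes, and 5 to 6 without 1 library. The filterByExpr filter and no filter called 58.1% and 39.7% of all genes (29.2% and 20.5% higher in skin). The 4 genes added there entered through their skin counts, so their calls lend no further support. The log2 differences in ratio ranged over the fits without 1 library from 1.51 to 1.85 for *Tgm3*/*Tgm1*, from -2.37 to -1.63 for *Elovl4*/*Cers3*, from 0.49 to 0.83 for *Pnpla1*/*Cyp4f39*, from 0.0012 to 0.32 for *Aloxe3*/*Alox12b* and from 0.06 to 0.38 for *Abca12*/*Alox12b*. Where the construction of the alternative does not show it, the cause was not tested. No paired analysis was possible because the annotation numbers the libraries from 1 to 11 and the groups share no number. Counts of 0 to 139 per gene and library limit what can be seen in the small intestine. Over all genes, the number called in skin was 1382, against 3030 with DESeq2, 894 with limma on log2(FPKM + 1) and 258 to 2521 without 1 library, and one fit of all 11 libraries called 4.98% higher and 5.21% lower. In the small intestine it was 588, against 1206 with DESeq2 and 294 to 801 without 1 library, and for the interaction 462, against 1281 with DESeq2, 301 without a filter and 144 to 1072 without 1 library.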
